A study of Caenorhabditis elegans with 28 samples.

Results

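The 10 alpha- and beta-tubulin genes followed here are *tba-1*, *tba-2*, *tba-4*, *tba-8* and *mec-12* (alpha) and *tbb-1*, *tbb-2*, *tbb-4*, *tbb-6* and *mec-7* (beta). They were found by gene name among the 20392 genes of the counts table and comprise the general, the neuronal and the stage-dependent tubulins. The stage-dependent ones were selected on their levels by hour in these same libraries, so changes over the hours are given as values with no test. The rule does not name the difference between genotypes at matched developmental time, which was tested. It does use the levels by hour in both genotypes, and the genes were chosen with earlier results of these data known. The genotype calls below are therefore not independent of the choice of genes.

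mRNA was sequenced from 28 libraries of whole *Caenorhabditis elegans* larvae, 14 of *ebax-1(tm2321)* and 14 of the wild-type strain N2 (WT). *ebax-1(tm2321)* carries a deletion in the gene for EBAX-1, the worm counterpart of mammalian ZSWIM8, which brings substrates to a Cullin-type E3 ubiquitin ligase. In both genotypes L1 larvae that had hatched without food were plated on bacteria at 2000 worms per plate, grown at 25°C and collected hourly from 18 h to 31 h, with 1 library per genotype and hour. Each genotype was a single culture, so the spread given below is that between hours, p-values reflect how far hourly libraries lie from fitted smooth curves, and an effect of genotype cannot be told apart from other differences between the 2 cultures. The developmental delay of the mutant was estimated by the study from the expression profiles of these same libraries, so the matching is not independent of the data. With the mutant taken to be 3 h behind, libraries of 21 to 31 h were matched with WT libraries of 18 to 28 h (11 pairs).

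Alpha- and beta-tubulin pair into heterodimers, which polymerize into microtubules, the filaments of the mitotic spindle, of motor transport and of the axoneme in cilia. In *C. elegans* the general genes *tba-1*, *tba-2*, *tbb-1* and *tbb-2* provide most tubulin of dividing cells. The touch receptor neurons, which sense gentle touch, hold unusually wide microtubules built from the alpha-tubulin MEC-12 and the beta-tubulin MEC-7, and MEC-12 is the alpha-tubulin that the acetyltransferase MEC-17 modifies. TBB-4 is a beta-tubulin of ciliated sensory neurons, and *tbb-6* is known as a reporter gene of a mitochondrial stress response that runs through the kinase PMK-3.

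Library totals ran from 5701773 to 9304062 counts in the mutant and from 5120921 to 9604238 in WT, so a level of 1 CPM (counts scaled to a common library size) stood for 5.12 to 9.6 counted reads. The deleted gene *ebax-1* stood at 17.9 to 48.1 CPM in the mutant (median 25.3) and at 33.7 to 137 CPM in WT (median 70.3). Exons that the deletion leaves in place are still counted, and the ranges overlap, so this checks the labels only in part. All 10 tubulin genes were detected in every library, with 1 count of *tba-8* in the WT library of 30 h as the lowest value, and all 10 passed the filter on low counts. The markers of touch receptor neurons were low in these whole-animal libraries but present: of 12 markers only *mec-14* had no count in some library (1 mutant library), while *mec-3*, the transcription factor gene of this cell type, had counts in every library. In such bulk samples, fewer cells of a type and less RNA per cell cannot be told apart.

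Which tubulin mRNAs were abundant was asked per length, in CPM per kb of summed exon. The general genes supplied most of it in both genotypes. *tbb-2* led with 962 ± 91.4 CPM per kb in the mutant and 868 ± 96.5 in WT (SD, n = 14 hours each). *tba-2* followed with 681 ± 36.4 in the mutant and 694 ± 61.6 in WT, and *tbb-1* with 453 ± 32.2 in the mutant and 476 ± 37.7 in WT. *tba-1* stood at 387 ± 26.2 in the mutant and 355 ± 27.7 in WT, and *tba-4* at 166 ± 15.1 in the mutant and 181 ± 41.9 in WT. These 5 genes kept this order in 14 of 14 libraries of each genotype, although the ranges of *tbb-1* and *tba-1* overlapped in the mutant and those of *tbb-2* and *tba-2* in WT.

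The neuronal genes came next, with *mec-12* at 72.1 ± 21.2 CPM per kb in the mutant and 53.5 ± 16.4 in WT, and *mec-7* at 51.8 ± 17.4 in the mutant and 36.0 ± 12.4 in WT (SD, n = 14 each). *mec-12* lay above *mec-7* in every library, but their ranges over the hours overlapped. *tba-8* averaged 18.9 ± 18.8 CPM per kb in the mutant and 12.1 ± 17.8 in WT, *tbb-4* 6.58 ± 2.27 in the mutant and 5.52 ± 2.27 in WT, and *tbb-6* 3.60 ± 0.69 in the mutant and 4.35 ± 2.48 in WT. From *mec-7* downward the ranges of all neighbours in this order overlapped, and *tba-8* stood above *tbb-4* in 8 of 14 mutant and 4 of 14 WT libraries.

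Summed over the 9 alpha genes of the family, *tba-1*, *tba-2* and *tba-4* made up 88.2% to 95.1% of alpha-tubulin mRNA per kb in the mutant (median 91.2%) and 88.0% to 97.3% in WT (median 94.3%). *tbb-1* and *tbb-2* made up 91.9% to 95.7% of the 6 beta genes in the mutant (median 94.2%) and 92.5% to 96.5% in WT (median 95.1%). The smaller genes took changing shares: *mec-12* held 3.21% to 7.37% of alpha in the mutant and 2.30% to 6.74% in WT, *mec-7* 2.24% to 5.09% of beta in the mutant and 1.29% to 4.24% in WT, and *tba-8* 0.165% to 3.91% of alpha in the mutant and 0.0087% to 3.84% in WT. The ratio of alpha to beta mRNA per kb was 0.896 ± 0.036 in the mutant and 0.930 ± 0.034 in WT (SD, n = 14 each). All 10 genes together took 0.403% to 0.472% of the reads in the mutant and 0.373% to 0.447% in WT.

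**Figure D1:**
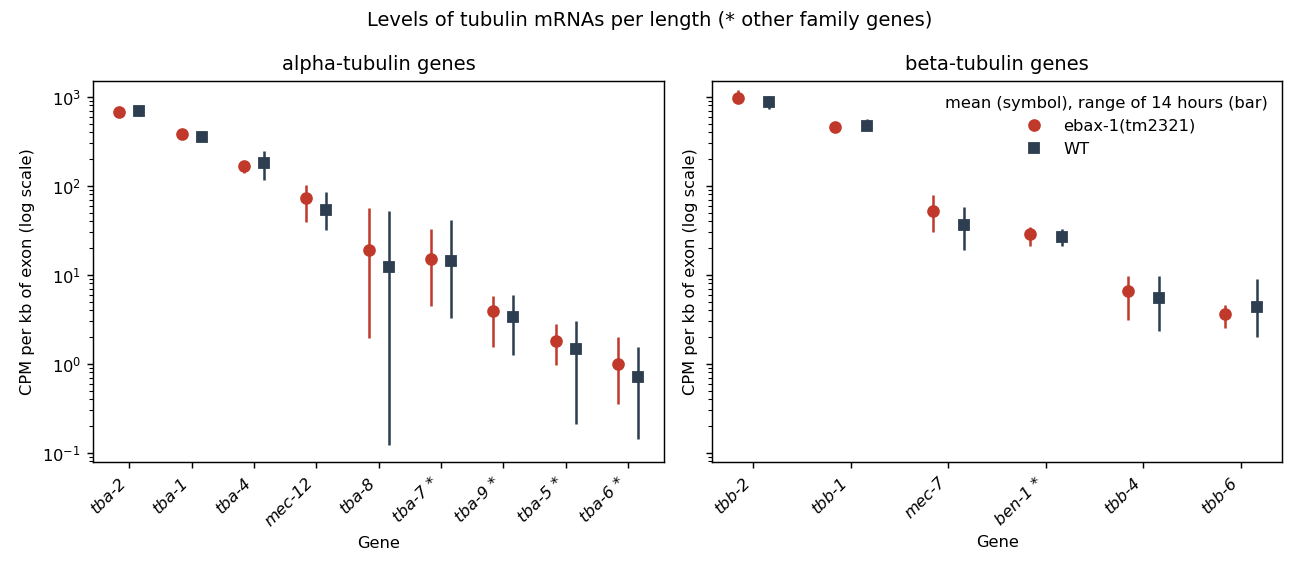
Levels of alpha- (left) and beta-tubulin (right) mRNAs in CPM per kb of exon on a log scale, with the mean of 14 hours as a symbol and the range as a bar, for ebax-1(tm2321) (red circles) and WT (dark squares). tbb-2 averaged 962 CPM per kb in the mutant and 868 in WT, against 3.60 in the mutant and 4.35 in WT for tbb-6, and on the log scale tba-8 spanned the widest range of the 10 genes.

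The general genes stayed within a narrow band over the hours. *tba-2* (WBGene00006529; WBcel235 chromosome I, 12964674 to 12966795, minus strand, protein coding) ran from 1048 CPM at 30 h to 1283 CPM at 26 h in the mutant (median 1130.2), and from 1019 CPM at 20 h to 1309 CPM at 31 h in WT (median 1151). *tba-1* (WBGene00006528; chromosome I, 9785781 to 9787624, minus strand) ran from 523 CPM at 30 h to 647 CPM at 25 h in the mutant (median 589), and from 482 CPM at 27 h to 625 CPM at 22 h in WT (median 539). For both alpha genes the highest hour was at most 1.30 times the lowest in either genotype.

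*tbb-2* (WBGene00006537; chromosome III, 4015910 to 4017627, minus strand) had its lowest mutant level at 30 h with 1284 CPM and its highest at 26 h with 1803 CPM (median 1464), while WT ran from 1097 CPM at 20 h to 1553 CPM at 23 h (median 1335). *tbb-1* (WBGene00006536; chromosome III, 10740868 to 10742432, minus strand) ran from 609.5 CPM at 31 h to 757 CPM at 21 h in the mutant (median 653), and from 630.3 CPM at 28 h to 819 CPM at 18 h in WT (median 704). *tba-4* (WBGene00006530; chromosome II, 10918706 to 10920211, plus strand) spanned 196 CPM at 23 h to 260.4 CPM at 27 h in the mutant (median 234.6), and 162 CPM at 20 h to 343 CPM at 31 h in WT (median 259.9). Among the general genes *tba-4* in WT varied most between hours: its highest level was 1.33 times its lowest in the mutant and 2.12 times in WT.

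A shallow wave recurred in *tba-4*, and the wave fitted to each of the other general genes was smaller. In the mutant, *tba-4* stood at 255 CPM at 20 h, 196 CPM at 23 h, 260.4 CPM at 27 h and 205 CPM at 30 h. In WT it stood at 162 CPM at 20 h, 315 CPM at 24 h, 185 CPM at 27 h and 343 CPM at 31 h, so the low hours of the mutant fell 3 h after those of WT. A cosine with a period of 7 h plus a linear term, the model of oscillating larval genes used in the study, gave an amplitude (mid-line to peak) for *tba-4* of 0.18 log2 in the mutant and 0.41 log2 in WT. The amplitude of *tbb-2* was 0.15 log2 in the mutant and 0.22 in WT, that of *tba-2* 0.08 in the mutant and 0.17 in WT, that of *tbb-1* 0.09 in the mutant and 0.14 in WT, and that of *tba-1* 0.07 in the mutant and 0.14 in WT. Fitted peaks were compared by counting forward from the WT peak within the 7 h period. The mutant peak followed by 2.79 h for *tba-1*, 2.99 h for *tba-4* and 3.06 h for *tba-2*. For *tbb-2* it followed by 3.11 h and for *tbb-1* by 3.89 h. Counted this way, any gene comes out later in the mutant, and no error of these lags or amplitudes was computed. *tba-2* and *tba-4* had the most similar profiles of the general genes (Pearson r of log2(CPM + 1) 0.861 over 28 libraries), followed by *tba-2* and *tbb-2* (0.769), while *tbb-1* and *tbb-2* had an r of 0.148. These correlations are a description, since libraries of a culture share a synchronized starting population and follow each other hour by hour.

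**Figure D2:**
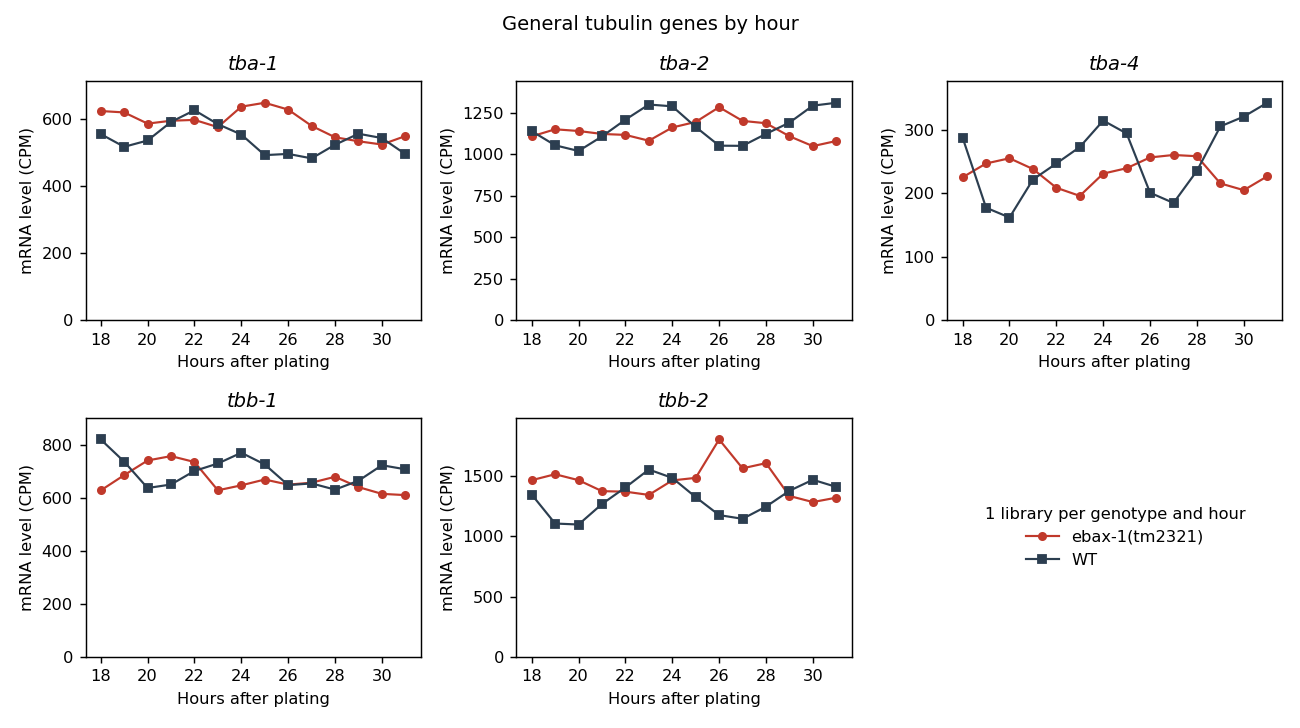
mRNA level in CPM against hours after plating for the general genes tba-1, tba-2, tba-4, tbb-1 and tbb-2, 1 library per point, in ebax-1(tm2321) (red circles) and WT (dark squares). tba-4 was low at 23 h and 30 h in the mutant (196 and 205 CPM), and at 20 h and 27 h in WT (162 and 185 CPM).

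The neuronal tubulin mRNAs declined over the sampled hours in both genotypes. *mec-12* (WBGene00003175; chromosome III, 3131574 to 3139234, minus strand) was highest at 18 h and lowest at 31 h, with 166 and 63.5 CPM in the mutant (median 118) and 138 and 51.5 CPM in WT (median 83.5). *mec-7* (WBGene00003171; chromosome X, 7774856 to 7776689, minus strand) ran from 123 CPM at 19 h to 47.1 CPM at 31 h in the mutant (median 75.3), and from 91.6 CPM at 18 h to 29.6 CPM at 31 h in WT (median 55.6). *tbb-4* (WBGene00006538; chromosome X, 9434452 to 9436893, minus strand) was at 15.3 CPM at 19 h in each genotype and at its lowest at 30 h, with 4.81 CPM in the mutant and 3.65 CPM in WT. At every hour the mutant library held more *mec-12* and *mec-7* than the WT library of the same hour (14 of 14 hours), and so did 13 of 14 for *tbb-4*.

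The fitted change from 18 h to 31 h was -1.38 log2 (SE 0.11) in the mutant and -1.26 log2 (SE 0.09) in WT for *mec-12*, -1.52 (SE 0.07) in the mutant and -1.48 (SE 0.09) in WT for *mec-7*, and -1.44 (SE 0.18) in the mutant and -1.66 (SE 0.23) in WT for *tbb-4*. The median over all genes fitted was -0.03 log2 in the mutant (13154 genes that were no members) and 0.0013 log2 in WT (14006 genes). As means of 3 hours, *mec-12* stood 2.26 times higher at 18 to 20 h than at 29 to 31 h in the mutant and 2.30 times in WT, *mec-7* 2.46 times in the mutant and 2.66 times in WT, and *tbb-4* 2.77 times in the mutant and 3.11 times in WT. Of all pairs among the 10 genes, *mec-12* and *mec-7*, the partners of the touch neuron microtubule, had the highest correlation (r = 0.985 over 28 libraries), and *tbb-4* followed them with 0.915 and 0.924. The genes outside the family with profiles most like *mec-12* were *madd-4*, *rab-3* and *far-1* (r = 0.968, 0.965 and 0.963), those most like *mec-7* were *rab-3*, *far-1* and *casy-1* (r = 0.969, 0.967 and 0.967), and those most like *tbb-4* were *ccb-1*, *pll-1* and W05H12.1 (r = 0.948, 0.938 and 0.937), out of 10199 genes with a mean of at least 5 CPM.

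Many neuron markers fell alongside. Fitted with the same model, a gene was called falling or rising where the edgeR adjusted p was under 0.01 and the change reached 1 log2 or more. By this rule 4.46% of genes fell and 8.32% rose in the mutant, and 6.12% fell and 14.9% rose in WT. Of 11 touch receptor neuron markers tested, 6 fell in the mutant (median change -1.04 log2) and 7 in WT (median -1.14), with none rising. Among them the matrix gene *mec-1* fell by 1.36 log2 in the mutant (edgeR adjusted p = 4.8e-07) and by 1.28 log2 in WT (edgeR adjusted p = 5.34e-07), and the mechanosensory channel gene *mec-4* by 1.80 log2 in the mutant (edgeR adjusted p = 6.21e-05). Of 20 general neuron markers 8 fell in the mutant (median -0.85) and 9 in WT (median -0.96), led by the synaptic vesicle gene *rab-3*, which fell by 1.47 log2 in the mutant and by 1.49 log2 in WT (edgeR adjusted p = 2.42e-08 in each genotype). Of 23 ciliated neuron markers 8 fell in the mutant (median -1.06) and 6 fell and 1 rose in WT (median -1.25).

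Summed CPM of a marker list rests on its most abundant members. From 18 to 20 h against 29 to 31 h the sum of the touch receptor markers stood 1.67 times higher in the mutant and 1.81 times in WT, that of the general neuron markers 1.46 times in the mutant and 1.60 times in WT, and that of the ciliated markers 1.61 times in each. The touch receptor sum ran from 171 to 312 CPM in the mutant and from 146 to 305 CPM in WT. Its most abundant genes include *mec-5* and *mec-8*, which in the mutant reached 73.3 and 71.4 CPM and had fitted changes of -0.78 and -0.60 log2, smaller than that of the low *mec-4*. Whole-animal libraries do not show in which cells these 2 genes were expressed. The sum is therefore not a measure of touch receptor neurons alone. Germ line markers moved the other way: 18 of 25 rose in the mutant and 17 of 25 in WT, and their summed level at 18 to 20 h was 0.488 of that at 29 to 31 h in the mutant and 0.473 of it in WT. The part of these shifts in the fall of *mec-12*, *mec-7* and *tbb-4* was not tested.

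**Figure D3:**
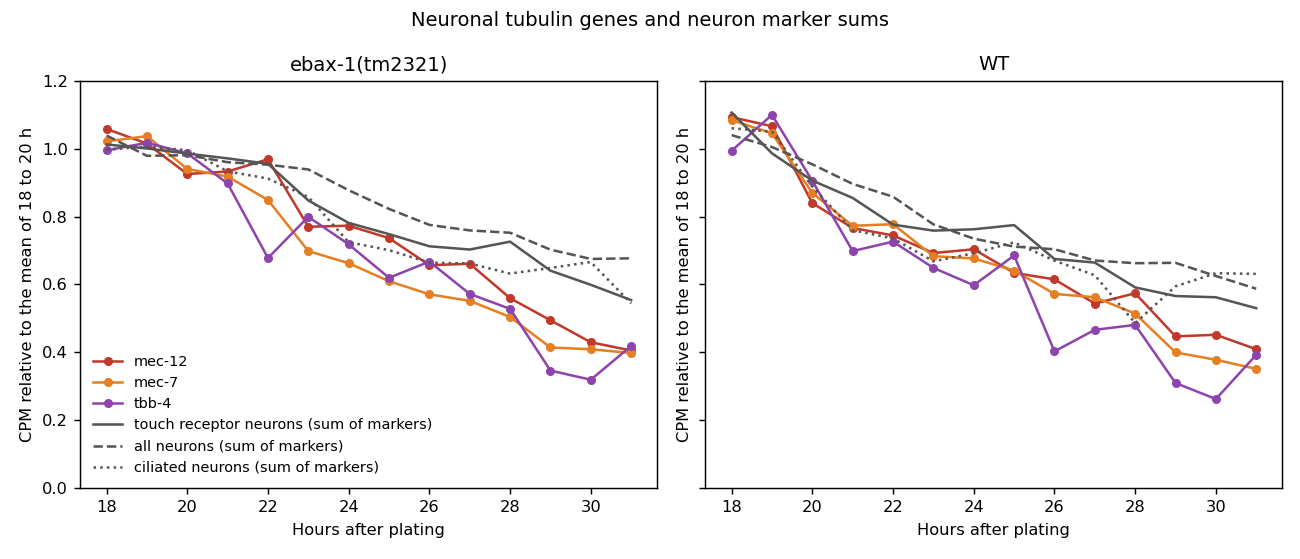
Levels of mec-12, mec-7 and tbb-4 (coloured, points) and summed CPM of touch receptor, general and ciliated neuron markers (grey lines) by hour, each divided by its own mean of 18 to 20 h, in ebax-1(tm2321) (left) and WT (right). All 6 curves ended lower than they began, and the touch receptor sum fell 1.67-fold in the mutant and 1.81-fold in WT, against 2.46-fold in the mutant and 2.66-fold in WT for mec-7.

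*tba-8* (WBGene00006534; chromosome X, 9455485 to 9458348, minus strand) appeared in pulses. In the mutant it stood at 68.6 CPM at 18 h, was down to 7.30 CPM at 20 h and 9.15 CPM at 21 h, and then passed through 20.4, 62.8, 87.7 and 69.6 CPM from 22 h to 25 h. It was at 29.1 CPM at 26 h, 18.8 CPM at 27 h, and between 3.06 and 4.72 CPM from 28 h to 31 h. In WT it passed from 1.24 CPM at 18 h through 12.8 and 55.9 CPM to 81.1 CPM at 21 h, and then through 67.8, 25.6 and 7.03 CPM to 2.29 CPM at 25 h. The mutant maximum at 24 h thus lay 3 h after the WT maximum at 21 h, at 87.7 against 81.1 CPM. The high level of the mutant at 18 h came 6 h before its maximum, and a WT library 3 h earlier than 18 h was not analysed here.

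A further small rise to 4.37 CPM at 27 h and 4.19 CPM at 28 h was seen in WT, before 0.862, 0.192 and 0.254 CPM at 29 to 31 h, which rested on 8, 1 and 2 reads. Mutant libraries matched to these last WT hours were not analysed here, and the lowest mutant library held 21 reads. In the last 2 matched pairs *tba-8* stood at 3.06 and 4.601 CPM in the mutant, against 4.37 and 4.19 CPM in WT. The 7 h model gave *tba-8* an amplitude of 1.43 log2 in the mutant and 2.11 log2 in WT, and a fitted change of -2.28 log2 (SE 1.0) in the mutant and -6.76 log2 (SE 1.15) in WT. Over the matched hours alone, 21 to 31 h in the mutant and 18 to 28 h in WT, the change was -4.03 log2 (SE 0.75) in the mutant and -4.17 log2 (SE 0.91) in WT, so the gap between the genotypes over all hours came with the unmatched ones. The genes outside the family with the most similar profiles were *cyn-8*, *nhr-74* and *dpy-27* (r = 0.896, 0.893 and 0.878 over 28 libraries), lower than for the neuronal genes. *tba-8* and *tbb-4* lie on the same strand of chromosome X, 18591 bases apart in WBcel235, and their profiles had an r of 0.627.

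*tbb-6* (WBGene00006539; chromosome V, 12261531 to 12263368, plus strand), the mitochondrial stress reporter gene, had the lowest mean level per kb of the 10 genes, and its levels after 25 h were higher in WT than in the mutant at all but 1 hour. In the mutant it ran from 3.79 CPM at 20 h to 6.82 CPM at 23 h (median 5.42, 28 to 51 reads per library). In WT it lay between 2.97 and 4.20 CPM from 18 h to 25 h, apart from 7.09 CPM (59 reads) at 20 h, and then at 9.44, 12.5, 13.3, 9.05, 5.19 and 9.53 CPM from 26 h to 31 h. The 5 highest late hours rested on 69 to 100 reads each. The fitted change over the hours was -0.12 log2 (SE 0.22) in the mutant and 2.22 log2 (SE 0.34) in WT. The most similar genes, *dagl-2*, R02F2.1 and *vsra-1*, reached an r of only 0.738, 0.716 and 0.686.

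**Figure D4:**
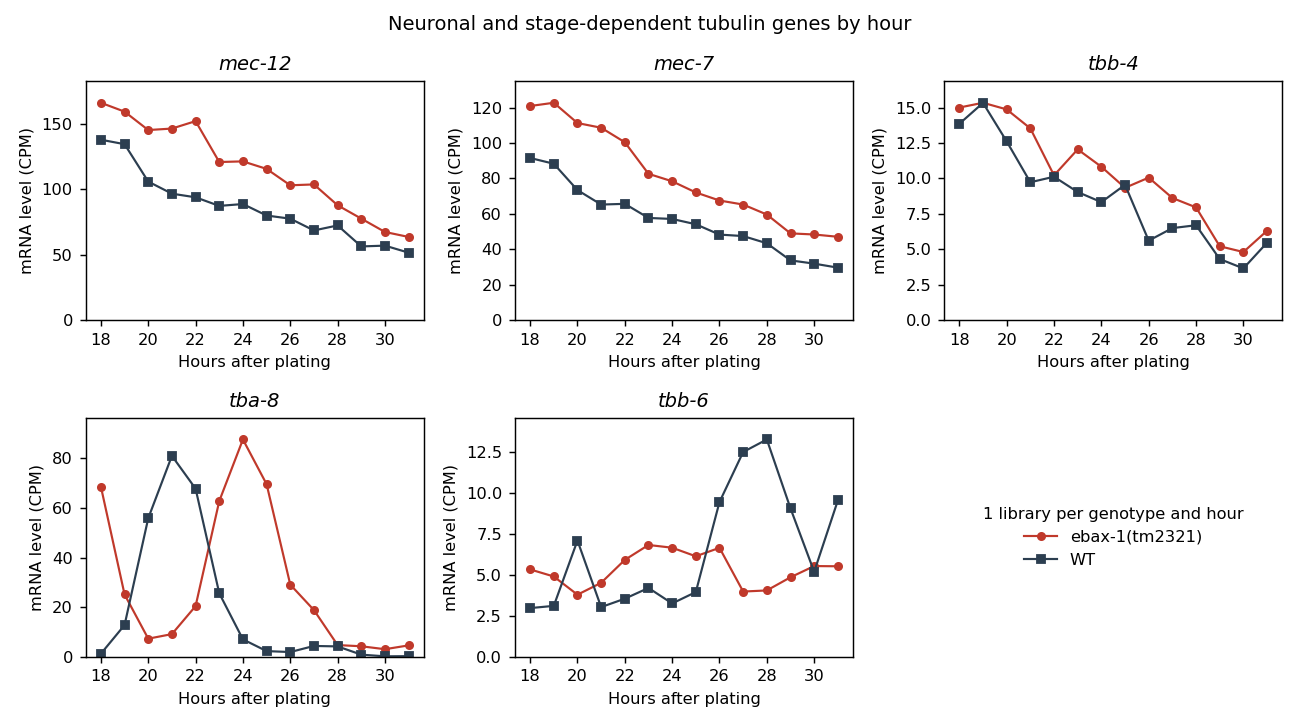
mRNA level in CPM against hours after plating for the neuronal genes mec-12, mec-7 and tbb-4 and the stage-dependent genes tba-8 and tbb-6, 1 library per point, in ebax-1(tm2321) (red circles) and WT (dark squares). tba-8 was highest at 24 h in the mutant (87.7 CPM) and at 21 h in WT (81.1 CPM), and tbb-6 stayed at or under 6.82 CPM in the mutant and reached 13.3 CPM in WT.

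Whether loss of EBAX-1 goes with another tubulin level was asked at matched developmental time. At an edgeR adjusted p under 0.01, with adjustment over all 14022 genes tested, 5 of the 10 genes were higher in the mutant (*tbb-2*, *tba-1*, *mec-7*, *mec-12* and *tba-8*), where 9.73% of all genes were, and 0 were lower, where 9.16% of all genes were. Apart from *tba-8* the called differences were at most 12.8% in level (*tbb-2*), and the median over the 10 genes was 0.07 log2, against 0.04 log2 over all genes tested. Of all calls 51.5% were higher in the mutant, and with scaling by library totals alone 68.5% were, with the same 5 tubulin genes called. For each of the 10 genes the ranges of the 2 genotypes over the 11 hours overlapped. These ranges include the change over the hours, so their overlap says little about differences within pairs, and it was not counted over all genes.

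*tbb-2* had the firmest difference. It ran from 1284 to 1803 CPM in the mutant (mean 1449 ± 156, SD, n = 11) and from 1097 to 1553 CPM in WT (1286 ± 152), and the mutant was higher in 11 of 11 pairs, by 0.17 on the log2 scale (SE 0.03, edgeR adjusted p = 0.000304). *tba-1*, also higher in 11 of 11 pairs, averaged 582 ± 42.5 CPM in the mutant and 541 ± 45.5 CPM in WT (SD, n = 11 each), which gave 0.11 on the log2 scale (SE 0.02, edgeR adjusted p = 0.00415). The other general genes did not pass. *tba-2* averaged 1143 CPM in the mutant and 1136 CPM in WT, with a 95% interval of the log2 difference of -0.03 to 0.05, and *tba-4* 231 CPM in the mutant and 236 CPM in WT, with an interval of -0.10 to 0.07. *tbb-1* was lower in the mutant in 11 of 11 pairs, with 662 ± 46.5 CPM against 699.6 ± 61.8 CPM in WT, but the difference of -0.08 on the log2 scale (SE 0.02, edgeR adjusted p = 0.0261) missed the threshold. The alignment command stated for these libraries sets no maximum number of hits, so the default of QuasR applied, under which a read with more than 1 hit is not reported. Reads shared by these highly similar genes may therefore be missing, and the split among *tba-1*, *tba-2* and *tba-4* and between *tbb-1* and *tbb-2* is uncertain. Under the other settings tried, *tbb-2* kept its call in 21 of 21 and *tba-1* in 14 of 21. The call of *tba-1* was lost without the pair at WT 21, 22, 23, 24, 25 or 26 h (edgeR adjusted p = 0.012 to 0.0256). It was also lost with no filter on low counts.

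*mec-7* averaged 70.8 ± 20.5 CPM in the mutant and 62.9 ± 16.0045 CPM in WT (SD, n = 11 each), higher in 11 of 11 pairs, by 0.16 on the log2 scale (SE 0.03, edgeR adjusted p = 0.00258). *mec-12* averaged 105 ± 29.5 CPM in the mutant and 94.7 ± 23.1 CPM in WT, higher in 9 of 11 pairs, by 0.13 on the log2 scale (SE 0.03, edgeR adjusted p = 0.00785). The differences of single pairs were not even over the hours. At WT 18 to 25 h they ran from 0.09 to 0.33 log2 for *mec-12* and from 0.13 to 0.26 log2 for *mec-7*. At WT 26, 27 and 28 h they were 0.0007, -0.02 and -0.19 log2 for *mec-12*, and 0.02, 0.03 and 0.12 log2 for *mec-7*. Because both genes decline with time, the mean differences depend on how far apart the genotypes are placed. With a delay of 2 h in place of 3 h they were 0.28 for *mec-7* and 0.23 for *mec-12*, and with a delay of 4 h they were 0.04 (edgeR adjusted p = 0.431) and 0.05 (edgeR adjusted p = 0.312). The call of *mec-7* was also lost without the pair at WT 18, 21 or 24 h (edgeR adjusted p = 0.0105 to 0.0174), and that of *mec-12* without any 1 of the pairs at WT 19 to 26 h (edgeR adjusted p = 0.0122 to 0.0607). *mec-12* was further lost with no filter on low counts (edgeR adjusted p = 0.0238), with a spline of 4 components (edgeR adjusted p = 0.0178) and with the matched pair as a block (edgeR adjusted p = 0.0363). *mec-7* held in 17 and *mec-12* in 9 of the 21 other settings. *tbb-4*, at 8.995 ± 2.76 CPM in the mutant and 9.76 ± 3.10 CPM in WT, was higher in 3 of 11 pairs and did not pass (log2 difference -0.13, 95% interval -0.31 to 0.05), and at the same hour over all 28 libraries its difference was 0.27. Touch receptor markers, for comparison, held 0 of 11 genes called in either direction, with a median of 0.12 log2 and a summed level that was higher in the mutant in 10 of 11 pairs (1.04-fold in the mean). Their count depended on the delay too: 4 of 11 were higher with a delay of 2 h and 0 with 4 h. At the same hour over all 28 libraries 9 were higher. Of 20 general neuron markers 1 was higher and 4 lower (median -0.00006 log2), and of 24 ciliated markers 2 were higher and 0 lower (median 0.38 log2). Of all genes 9.73% were higher and 9.16% lower. The general neuron sum was higher in the mutant in 2 of 11 pairs (0.97-fold in the mean). The ciliated sum was higher in 11 of 11 (1.16-fold).

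*tba-8* had the largest fitted difference of the 10 genes, 0.68 log2 (SE 0.11, edgeR adjusted p = 0.000502), and was higher in 10 of 11 pairs. Its mean CPM differed far less, 28.6 ± 30.5 in the mutant and 24.0 ± 29.8 in WT (SD, n = 11 each), which is 0.25 on the log2 scale, because the fit averages log levels and so weights low hours like high ones. The pair at WT 18 h, with 9.15 CPM in the mutant and 1.24 CPM in WT, was the furthest apart. Without that pair the difference was 0.46 log2 (edgeR adjusted p = 0.0125), and with the matched pair as a block in place of the smooth curve it was 0.45 log2 (edgeR adjusted p = 0.0739). At the maximum the genotypes stood at 87.7 CPM in the mutant and 81.1 CPM in WT.

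*tbb-6* did not pass the test of the mean difference (0.03 log2, 95% interval -0.28 to 0.35), and its pairs were mostly positive early (7 of 8) and negative in the last 3. The mutant was higher in 7 of 11 pairs, and in the last 3 pairs it stood at 4.85, 5.53 and 5.52 CPM against 9.44, 12.5 and 13.3 CPM in WT. The test of any difference over the time course gave an edgeR adjusted p of 0.0731 for *tbb-6*, and the test of a genotype-by-time interaction 0.329. In the test of any difference only *tba-8* passed among the 10 genes (edgeR adjusted p = 0.00398), where 5.8% of all genes did, and its call was lost without the pair at WT 18, 19, 20, 21, 22, 23 or 26 h (edgeR adjusted p = 0.0106 to 0.0696) and with a spline of 4 components (edgeR adjusted p = 0.0386). *tbb-2* missed this test (edgeR adjusted p = 0.0141) but passed it with library totals only, with limma on the deposited log2 values and with a spline of 4 components (adjusted p = 0.00288, 0.00338 and 0.00382). No gene of the series passed the interaction test (0% of 14022, lowest edgeR adjusted p = 0.0127, 0 genes by limma), although 1329 genes had an unadjusted p under 0.05, and the 10 tubulin genes had edgeR adjusted p-values from 0.151 to 0.946.

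**Figure D5:**
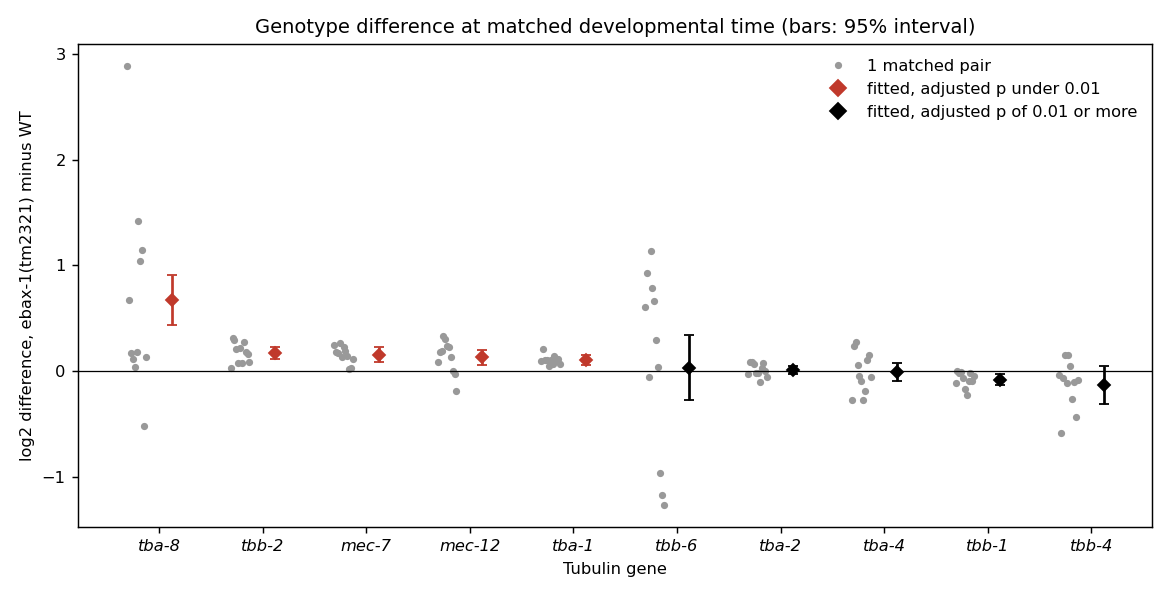
log2 difference of each tubulin gene, ebax-1(tm2321) minus WT, at matched developmental time, with the 11 matched pairs as grey points and the fitted mean difference with its 95% interval as diamonds (red where the edgeR adjusted p was under 0.01). tba-8 stood at 0.68 with pairs spread widely, tbb-2, mec-7, mec-12 and tba-1 at 0.11 to 0.17, and tbb-6 had pairs on both sides of 0.

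The remaining genes of the tubulin family were lower in level than the general ones. *ben-1*, the beta-tubulin targeted by benzimidazole drugs, stood at 43.8 to 71.5 CPM in the mutant and at 43.6 to 67.0 CPM in WT, and *tbg-1*, the gamma-tubulin that nucleates microtubules, at 28.3 to 52.2 CPM in the mutant and 27.3 to 51.5 CPM in WT. *tba-7* ranged from 6.37 to 46.5 CPM in the mutant and from 4.70 to 58.6 CPM in WT, and *tba-5*, *tba-6* and *tba-9* did not exceed 9.33 CPM in the mutant or 9.73 CPM in WT. None of these 6 genes passed the genotype test, with a median of 0.06 log2 and *tbg-1* nearest to it (0.14 log2, edgeR adjusted p = 0.0271). Over the hours 3 of the 6 fell in each genotype, *tba-5*, *tba-6* and *tba-9* in the mutant and *tba-5*, *tba-7* and *tba-9* in WT, as named after their values were seen. *tba-5*, the alpha-tubulin that partners TBB-4 in cilia, fell by 1.17 log2 in the mutant (SE 0.26) and by 2.20 log2 in WT (SE 0.44), the same direction as the fitted change of *tbb-4*.

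All 8 subunits of the CCT chaperonin, the ring in which new tubulin folds, were lower in the mutant at matched time (8 of 8 tested, median -0.17 log2). Of all genes 9.16% were lower. This list, like the others, was chosen with earlier results of these data known. *cct-5* fell by 0.27 log2 (SE 0.02, edgeR adjusted p = 1.93e-06), *cct-1* by 0.23 log2 (SE 0.03, edgeR adjusted p = 0.000127), *cct-6* by 0.21 log2 (SE 0.03, edgeR adjusted p = 0.000193) and *cct-3* by 0.17 log2 (SE 0.03, edgeR adjusted p = 0.000329). With scaling by library totals 7 of the 8 were still called lower, and at the same hour over all 28 libraries 2 were. Of the 6 subunits of prefoldin, which hands tubulin to CCT, 3 were lower, against the same 9.16%, and 0 higher (median -0.15 log2). *pfd-3* stood at -0.14, *pfd-1* at -0.16 and *pfd-4* at -0.24 log2. With scaling by library totals, however, 0 of the 6 were called (median -0.10). Of the 7 tubulin cofactors, which assemble the heterodimer, 0 passed in either direction (median 0.03 log2). The summed CCT level was lower in the mutant in 11 of 11 pairs, with 2613 to 3164 CPM in the mutant and 3159 to 3495 CPM in WT.

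Of 9 tubulin-modifying enzymes tested 1 was lower, *ttll-12* (-0.16 log2, edgeR adjusted p = 0.0061), and 0 were higher. *mec-17*, which acetylates MEC-12, stood at 0.11 log2 (SE 0.05, edgeR adjusted p = 0.142), and over the hours it fitted -0.96 log2 in the mutant and -0.71 log2 in WT, under the size required for a call. Of 29 microtubule-associated and severing genes 5 were higher and 3 lower (median 0.04 log2), led by the pericentriolar scaffold gene *spd-5* (-0.28), the spectraplakin *vab-10* (-0.18), the EMAP homolog *elp-1* (0.34) and the centriole duplication gene *spd-2* (0.19). Of 29 kinesin and dynein motor genes 3 were higher and 2 lower (median 0.05 log2), with the kinesin-14 gene *klp-3* at -0.32 and *che-3*, the dynein heavy chain of cilia, at 0.40 log2. These shares can be read against the 9.73% and 9.16% of all genes called higher and lower.

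Over the hours 2 of 28 microtubule-associated genes rose and 1 fell in the mutant, against 1 rising and 2 falling of 28 in WT. Of the motor genes 2 of 28 fell in the mutant, against 3 falling and 1 rising of 29 in WT. Of all genes 4.46% fell in the mutant and 6.12% in WT, so the shares that fell lay near the background. The tau homolog *ptl-1*, a microtubule-binding protein abundant in touch receptor neurons, fell by 1.11 log2 in the mutant (edgeR adjusted p = 5.44e-06) and by 1.42 log2 in WT (edgeR adjusted p = 1.73e-06). The axonal kinesin *unc-104* fell by 1.13 log2 in the mutant (edgeR adjusted p = 3.4e-07) and by 1.14 log2 in WT (edgeR adjusted p = 3.31e-07), and the ciliary kinesin *klp-11* by 1.06 log2 in the mutant (edgeR adjusted p = 3.8e-05) and by 1.01 log2 in WT (edgeR adjusted p = 7.24e-05). *spd-5* rose by 1.01 log2 in each genotype (edgeR adjusted p = 1.31e-06 in the mutant and 7.26e-08 in WT). Also among the lowest p of the microtubule-associated list, *cls-3* had fitted changes of -0.97 log2 in the mutant and -1.63 log2 in WT. Those of *unc-44* were -0.68 log2 in the mutant and -0.60 log2 in WT. The motor gene with the lowest p in WT was *klp-17*, which rose by 13.6 log2 (edgeR adjusted p = 3.72e-09).

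Of the markers of other tissues, body wall muscle markers were mostly lower in the mutant at matched time (11 of 13 lower, where 9.16% of all genes were, and 0 higher, median -0.20 log2), and their sum was lower in 11 of 11 pairs, from 17820 to 20167 CPM in the mutant and from 20817 to 24111 CPM in WT. Of 12 epidermal markers 5 were higher, where 9.73% of all genes were, and 0 lower (median 0.41 log2). Those with the lowest p were *dpy-10*, *dpy-7*, *sqt-3* and *dpy-13*. Over the matched hours the epidermal sum swung from 1193 to 10877 CPM in the mutant and from 774 to 10661 CPM in WT. It was higher in the mutant in 9 of 11 pairs. These 5 calls therefore do not measure the tissue as a whole. Germ line markers, with 3 of 25 higher and 1 lower (median 0.09 log2), lay near these shares, and of 21 sperm markers 0 passed (median 0.02 log2). The part of these tissue markers in the tubulin differences was not tested.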

How the data were processed

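Alignment by the authors used HISAT2 within QuasR against ce10, and reads were counted, strand-aware, over the exons of WS220 genes. The deposited counts per gene are whole numbers and were used as given. The deposited log2 values, which the authors scaled to the mean library total with a pseudocount of 8, were recomputed to within 0.0005 and served an alternative only. Of 20392 gene IDs, 19182 had a symbol and 19870 an exon length in WBcel235, whose coordinates are printed and which is not the build of the counts. All 28 libraries were used, 0 pairs of libraries were identical and 0 per-sample columns were left unused. Totals of 5120921 to 9604238 counts make 1 CPM about 5.12 to 9.6 reads.

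Levels are CPM with TMM-scaled library sizes. Genotypes were compared with edgeR 4.0.16 (R 4.3.3, filterByExpr, TMM, quasi-likelihood test) in 11 pairs with a mutant delay of 3 h, with cubic B-splines of 6 components per genotype (14 parameters, 8 residual degrees of freedom) and Benjamini-Hochberg adjustment over 14022 genes (threshold 0.01). The mean, any-difference and interaction contrasts were tested. Trends were fitted within a genotype as a 7 h cosine and sine plus a line. Scripts were tested on simulated data. limma 3.58.1, DESeq2 1.42.0 and other scalings, filters, delays and time models were alternatives. The members and lists were chosen with earlier results of these data known. All 10 members are named, with at most 4 genes of a list, those with the lowest p in that comparison, and the 3 most similar genes (Pearson r) per member. Marker genes quoted as a check of tissue, and genes marked as such, were chosen after their values were seen.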

Additional observations from a re-analysis of the deposited data

How the results depend on the processing

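The number of tubulin genes called different in mean level, 5 at a delay of 3 h, was 3 with no filter on low counts, with a spline of 4 components and with the matched pair as a replicate block, and ran from 2 to 5 when each pair was left out. The pairs share only a matched developmental time. The block fit called 2303 genes, against 2648 without it. All 21 alternatives kept *tbb-2* (0.14 to 0.22 log2). *tba-8* lost its call with a spline of 4 components (0.66), the block (0.45) and without the pair at WT 18 h (0.46). At the same hour over all 28 libraries 4047 genes were called and *tbb-4* turned to 0.27 log2 (edgeR adjusted p = 0.00589), while *tbb-1* was called lower in the mutant there and at a delay of 4 h (-0.07 and -0.11).

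Leaving out each pair gave 2009 to 2599 genes for the mean difference and 312 to 892 for any difference, against 813, and 0 to 29 for the interaction. The interaction count was 1 with library totals only and 1 with no filter on low counts. In the matched hours alone 930 genes rose and 378 fell in WT and 318 fell in the mutant. Over all hours 2088 rose and 857 fell in WT and 587 fell in the mutant. The shares of rising and falling genes given above are those over all hours, so they depend on the unmatched hours too. With coding length in place of exon length *tba-2* held 53.6% of alpha mRNA in the mutant and 55.8% in WT. Depth limits *tbb-6*, *tbb-4* and the low hours of *tba-8*, which rest on 1 to 138 reads per library, and a single culture per genotype limits every comparison.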
